A study of Homo sapiens with 9 samples.

Results

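Cholesterol and fatty acid synthesis was examined through 36 genes, matched by name in the table of gene counts out of 58929 genes in all. They comprise 7 genes of the mevalonate pathway, 11 genes from squalene to cholesterol, 6 genes of SREBP control and sterol carriage, 9 genes of fatty acid synthesis and desaturation, and 3 genes of LXR targets and sterol export. All 36 passed the filter on low counts and were tested among 16065 genes. FaDu, labelled Wt, is an established human line of HNSCC, squamous carcinoma of the head and neck. It was treated with YKL-5-124 at 250 nM, a covalent inhibitor of CDK7, with samuraciclib at 250 nM, an ATP-competitive inhibitor of the same kinase, or with vehicle (DMSO), with 3 libraries in each group. Treatment lasted 48 h according to the protocol in the labels and to the paper, and 72 h according to the series design. The results therefore describe 1 cell line at 1 dose and 1 time, and the libraries are called biological replicates in the methods, though no label ties them to separate cultures, so that p-values measure the spread between these libraries.

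Cells build cholesterol from acetyl-CoA through mevalonate, the isoprenoids and squalene, and fatty acids from the same acetyl-CoA through malonyl-CoA. Most enzymes of both routes are transcribed under SREBP transcription factors, which SCAP escorts out of the endoplasmic reticulum when sterols are scarce and which INSIG proteins hold back when sterols are plentiful. The liver X receptors (LXR), activated by oxysterols, oppose this by driving sterol export and limiting sterol uptake, while also raising SREBF1. Proliferating carcinoma cells commonly run both routes at a high rate to supply membranes.

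The libraries held 18264302 to 24613892 counts with YKL-5-124, 19346587 to 22111350 with samuraciclib and 18096180 to 28018126 with DMSO. Of 8 markers of squamous epithelium, 7 had at least 100 counts in every library, and of 14 markers of other cell types 12 had at most 10 counts in every library, the exceptions being the endothelial genes CDH5 and VWF. All 14 summed to 26.0 to 28.7 CPM with YKL-5-124, 20.6 to 24.2 CPM with samuraciclib and 30.7 to 32.5 CPM with DMSO. CDH5 held 364 to 823 counts per library and was lower with samuraciclib than with DMSO (log2 fold change -0.50 ± 0.081 SE). Without CDH5 and VWF, the markers of other cell types summed to 0.341 to 0.468 CPM with YKL-5-124, 0.456 to 0.771 CPM with samuraciclib and 0.452 to 0.746 CPM with DMSO. LUM and ADIPOQ were at 0 throughout. CPM here are counts relative to the library size after TMM scaling. RN7SL2, a 7SL RNA gene, stood far lower in 1 library of each group (56.3 CPM in YKL-5-124 replicate 2, 24.9 CPM in samuraciclib replicate 2 and 59.3 CPM in DMSO replicate 3) than in the other 6, and results that changed without these 3 libraries are given with that value.

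The members together took less of the transcriptome with either inhibitor, and least with YKL-5-124. They made up 0.622% to 0.634% of the counts with YKL-5-124, 0.679% to 0.702% with samuraciclib and 0.725% to 0.739% with DMSO. Scaled by TMM, their summed level was 77.9% to 78.5% of the DMSO mean with YKL-5-124 and 89.1% to 91.0% with samuraciclib, against 97.8% to 102% in the DMSO libraries, and the 3 groups did not overlap. FASN alone carried 22.7% to 25.7% of the members' CPM with YKL-5-124, 22.7% to 23.6% with samuraciclib and 26.5% to 27.9% with DMSO. Without FASN and SCD the sum was 82.4% of the DMSO mean with YKL-5-124 and 93.4% with samuraciclib. These are shares of each library. Fewer cells of a type and less RNA per cell cannot be told apart from them.

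**Figure D1:**
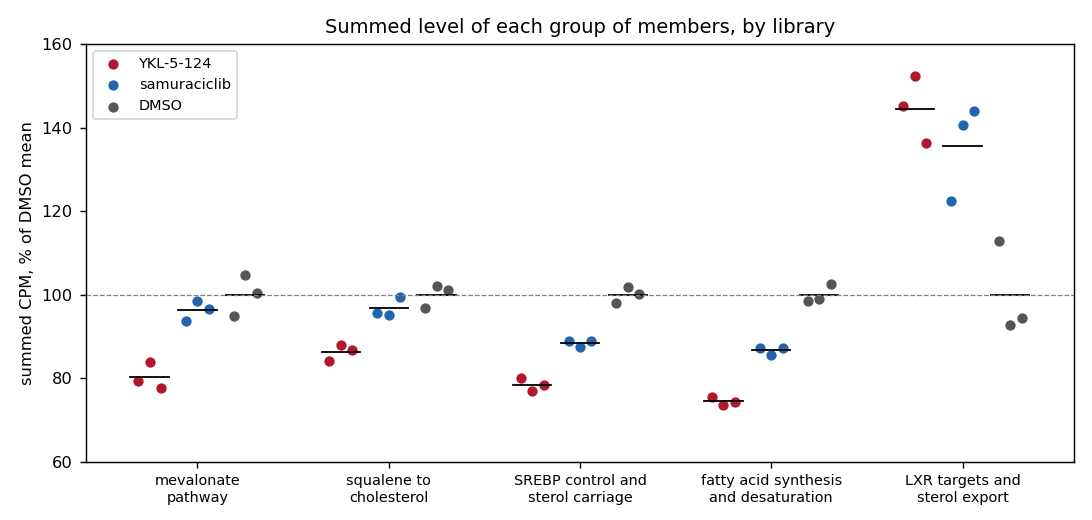
Summed CPM of each group of members in each library, as percent of the DMSO mean of that group; points are libraries, black lines are means of 3 libraries and the dashed line marks 100%. The sums for fatty acid synthesis and desaturation lie between 73.6% and 75.5% with YKL-5-124 and between 85.5% and 87.3% with samuraciclib. With DMSO they lie between 98.5% and 102.5%. The sum of the 3 genes of LXR targets and sterol export lies above 120% with both inhibitors. MYLIP supplies most of that sum, at means of 20.7 of 21.8 CPM with YKL-5-124, 19.1 of 20.5 with samuraciclib and 14.1 of 15.1 with DMSO.

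Levels per kilobase of gene model differed widely between members. FASN, the fatty acid synthase, had 157, 171 and 221 CPM per kb with YKL-5-124, samuraciclib and DMSO, and SCD, the stearoyl-CoA desaturase, had 153, 205 and 205 CPM per kb. SQLE, the squalene epoxidase, followed in all 3 groups with 91.0, 108 and 111 CPM per kb. In DMSO the means of FASN (221 ± 2.40 CPM per kb) and SCD (205 ± 12.2 CPM per kb, SD, n = 3) differed by little more than the spread of SCD, and with samuraciclib SCD stood above FASN. At the other end were the sterol exporters ABCA1 and ABCG1, with means of 0.0518 to 0.0862 CPM per kb and only 2 to 27 counts per library, so differences in these 2 genes were not detectable at this depth. TM7SF2, a sterol C14 reductase, was the lowest of the other members in DMSO, at 1.66 CPM per kb.

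**Figure D2:**
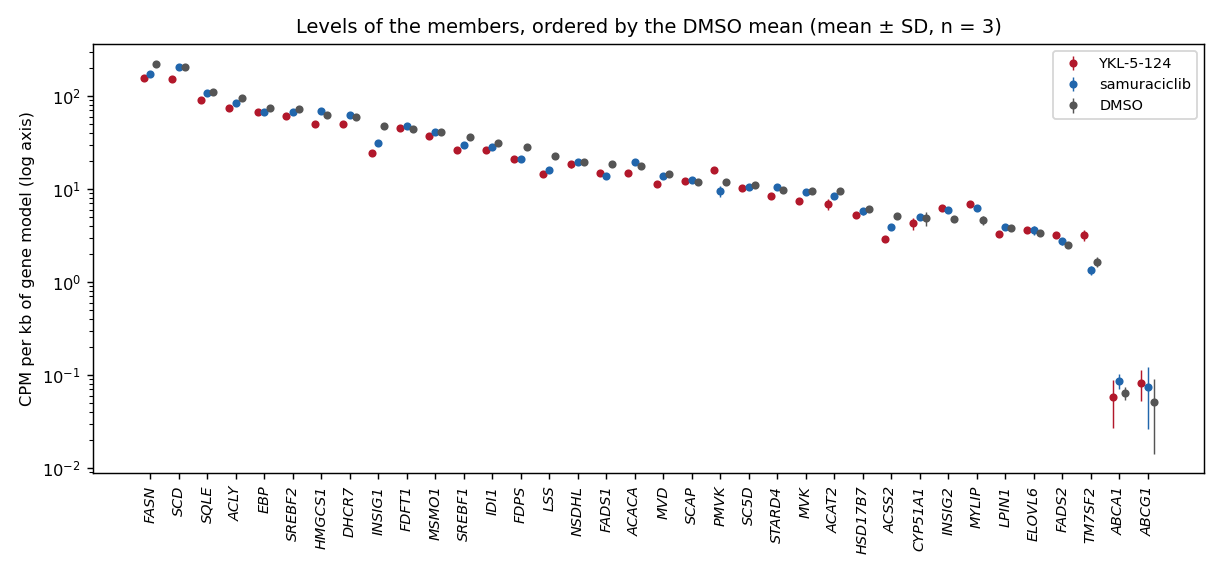
Mean level of each member in CPM per kb of gene model (log axis) with SD over 3 libraries, for YKL-5-124, samuraciclib and DMSO, ordered by the DMSO mean. FASN and SCD lie near 200 CPM per kb in DMSO, and ABCA1 and ABCG1 lie below 0.1 CPM per kb in every group.

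Setting YKL-5-124 against DMSO addresses which of these transcripts differed between cells given a CDK7 inhibitor and cells given vehicle. CDK7 activity itself was not measured in these libraries. INSIG1, LSS and ACSS2 fell and TM7SF2 and MYLIP rose, where a call required an adjusted p below 0.05 (edgeR's quasi-likelihood F-test, Benjamini-Hochberg over all genes) and a log2 fold change beyond 0.5 in size. Thus 3 of 36 members were called lower, against 9.93% of all genes tested, and 2 were called higher, against 11.9% (5 in either direction, or 13.9%, against 21.8%). Changes beyond the fold threshold were not more frequent among the members than among genes in general. Smaller differences lay mostly below 0. At an adjusted p below 0.05 with no fold threshold, 22 of 36 members (61.1%) were lower, against 25.2% of all genes, and 5 (13.9%) were higher, against 24.1% (49.3% in either direction). The libraries of both groups did not overlap for 22 members that were lower, against 28.4% of all genes, and for 5 that were higher, against 28.4% (56.8% in either direction). The median log2 fold change of the members was -0.23, with 0.01 over all genes tested. Scaling by library size alone moved the median gene to 0.14 and that of the members to -0.10, which kept the distance between them at -0.25, and 17 members (47.2%) were then lower and 8 (22.2%) higher without the fold threshold, against 16.7% and 35.6% of all genes on that scaling.

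Samuraciclib, compared with DMSO for the same question, changed fewer members. INSIG1 and LSS fell and no member rose, which is 2 of 36 lower, against 9.55% of all genes, and 0 higher, against 8.17% (17.7% in either direction). With DESeq2 the count of members higher was also 0, and at an unadjusted p under 0.05 without a fold threshold 4 members were higher. At an adjusted p below 0.05 with no fold threshold, 11 members (30.6%) were lower, against 23.1% of all genes, and 2 (5.56%) were higher, against 21% of all genes (44.1% in either direction). The groups did not overlap for 12 members that were lower, against 27.3%, and 4 that were higher, against 25.6% (52.9% in either direction). The median of the members, -0.04, was close to that of all genes, 0.00. On library size alone it was 0.02, with 8 members lower and 7 higher without the fold threshold, against 19.2% and 26.6% of all genes on that scaling. The lower sum of the members with samuraciclib, given above, is weighted to the most abundant genes, whereas the median counts each gene alike.

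INSIG1, the feedback regulator that retains the SCAP-SREBP complex and is itself a sensitive SREBP target, changed most among the members that fell. It had 87.9, 90.3 and 89.5 CPM with YKL-5-124, 109.9, 112.7 and 115 CPM with samuraciclib, and 168, 182 and 173 CPM with DMSO. The 3 groups were fully separated, with YKL-5-124 lowest and DMSO highest. INSIG1 (ENSG00000186480, chromosome 7, 155297776 to 155310235, GRCh38) was 1.95-fold lower with YKL-5-124 (log2 fold change -0.97 ± 0.046 SE, adjusted p = 1.38e-11) and 1.55-fold lower with samuraciclib (-0.63 ± 0.046, adjusted p = 4.64e-09). Its paralog INSIG2, which SREBPs do not induce as they do INSIG1, ran opposite, with 24.8, 24.1 and 25.6 CPM with YKL-5-124, 22.5, 22.7 and 24.5 CPM with samuraciclib, and 17.1, 19.4 and 19.4 CPM with DMSO. Both inhibitor groups lay above the DMSO libraries, at log2 fold changes of 0.41 ± 0.078 (adjusted p = 0.000249) and 0.32 ± 0.078 (adjusted p = 0.00297), inside the fold threshold.

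LSS, lanosterol synthase, closes the first sterol ring system from epoxidised squalene. It had 104.4, 104.3 and 107 CPM with YKL-5-124, 109, 117 and 123 CPM with samuraciclib, and 169, 162 and 165 CPM with DMSO, so that both inhibitor groups lay well below DMSO. The log2 fold change was -0.65 ± 0.049 with YKL-5-124 (adjusted p = 4.29e-09) and -0.51 ± 0.049 with samuraciclib (adjusted p = 1.35e-07). The second value lies at the threshold, and without samuraciclib replicate 1 it was -0.47 and LSS was no longer called. ACSS2, which makes acetyl-CoA from acetate, had 14.9, 15.9 and 15.9 CPM with YKL-5-124, 19.8, 20.5 and 22.1 CPM with samuraciclib, and 27.0, 27.7 and 28.8 CPM with DMSO. It stepped down in the same order as INSIG1, by a log2 fold change of -0.84 ± 0.077 with YKL-5-124 (adjusted p = 5.68e-08) and -0.42 ± 0.075 with samuraciclib (adjusted p = 0.000152, inside the fold threshold).

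TM7SF2 and PMVK were, with the desaturase gene FADS2, the genes of synthesis and desaturation enzymes that were higher with YKL-5-124 than with DMSO at an adjusted p below 0.05. TM7SF2, one of the sterol C14 reductases, had 10.8, 9.52 and 12.2 CPM with YKL-5-124, 4.68, 4.01 and 4.93 CPM with samuraciclib, and 4.81, 6.02 and 6.10 CPM with DMSO. Every YKL-5-124 library lay above all others, while samuraciclib and DMSO overlapped. It rose 1.90-fold with YKL-5-124 against DMSO (log2 fold change 0.93 ± 0.13, adjusted p = 1.26e-05), and stood at -0.33 ± 0.15 with samuraciclib (adjusted p = 0.0777). The gene carried 84 to 251 counts per library. PMVK, phosphomevalonate kinase, had 19.4, 20.6 and 22.1 CPM with YKL-5-124, 10.7, 11.7 and 14.0 CPM with samuraciclib, and 14.4, 15.7 and 15.1 CPM with DMSO, so the inhibitors lay on opposite sides of the vehicle. The log2 fold changes were 0.46 ± 0.098 with YKL-5-124 (adjusted p = 0.000783) and -0.32 ± 0.10 with samuraciclib (adjusted p = 0.0181), neither beyond the fold threshold. Without YKL-5-124 replicate 1 the first was 0.501, and PMVK was called.

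MYLIP encodes a ubiquitin ligase that LXR induces and that limits sterol uptake. It had 20.9, 21.6 and 19.5 CPM with YKL-5-124, 17.3, 20.0 and 19.9 CPM with samuraciclib, and 15.9, 12.8 and 13.5 CPM with DMSO. Both inhibitor groups lay above DMSO. MYLIP rose with YKL-5-124 (log2 fold change 0.56 ± 0.095, adjusted p = 8.40e-05) and was higher with samuraciclib inside the fold threshold (0.44 ± 0.096, adjusted p = 0.000991). Without the 3 libraries low in 7SL RNA the first value was 0.49 ± 0.12 and MYLIP was not called. Without DMSO replicate 1 or samuraciclib replicate 1 the second was 0.53 or 0.51, and it was called.

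**Figure D3:**
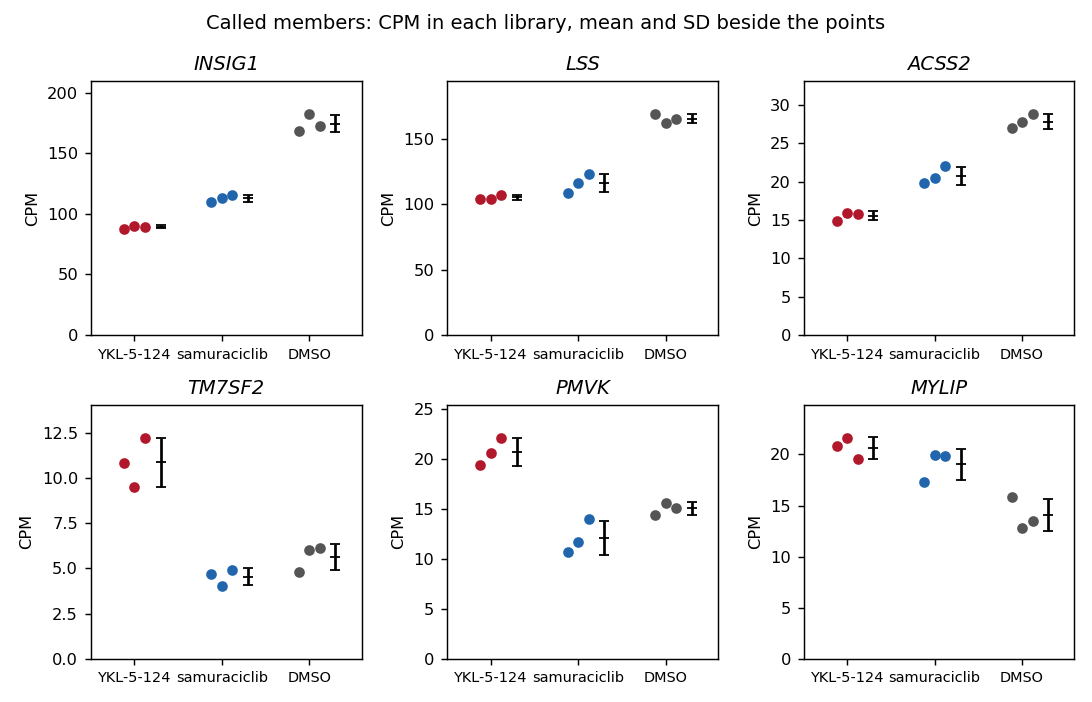
CPM of the 6 members called in at least 1 comparison, for each library of YKL-5-124, samuraciclib and DMSO, with the mean and SD of 3 libraries beside the points. INSIG1, LSS and ACSS2 are lower with both inhibitors than with DMSO, TM7SF2 and PMVK are highest with YKL-5-124, and MYLIP is higher with both inhibitors than with DMSO.

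The promoters of these 6 members and of SREBF2 are printed to let the genes that fell be set beside those that rose. Each line gives the 180 bases before the most upstream RefSeq start (GRCh38.p14), 5′ to 3′ along the gene. For ACSS2 and PMVK these bases lie wholly inside the counted gene model. The model of ACSS2 begins at position 34872146 and that of PMVK, on the minus strand, at 154936991, both further upstream. Capitals mark the GC box GGGCGG, the NF-Y box CCAAT and the sterol regulatory element TCACNCCAC, each on either strand, and adjoining or overlapping matches run together.
INSIG1 (chr7:155297698-155297877, plus strand): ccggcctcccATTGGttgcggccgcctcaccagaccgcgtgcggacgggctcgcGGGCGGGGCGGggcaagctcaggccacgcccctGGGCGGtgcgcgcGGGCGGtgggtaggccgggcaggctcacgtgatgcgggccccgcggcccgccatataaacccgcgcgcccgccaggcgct
LSS (chr21:46228775-46228954, minus strand): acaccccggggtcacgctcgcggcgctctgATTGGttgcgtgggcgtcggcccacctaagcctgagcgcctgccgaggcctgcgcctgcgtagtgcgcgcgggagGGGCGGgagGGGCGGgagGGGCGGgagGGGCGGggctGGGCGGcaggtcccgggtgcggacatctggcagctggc
ACSS2 (chr20:34874809-34874988, plus strand): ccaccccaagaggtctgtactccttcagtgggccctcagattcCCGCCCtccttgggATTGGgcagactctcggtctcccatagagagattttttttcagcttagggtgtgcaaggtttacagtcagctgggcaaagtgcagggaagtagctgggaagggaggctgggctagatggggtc
TM7SF2 (chr11:65111692-65111871, plus strand): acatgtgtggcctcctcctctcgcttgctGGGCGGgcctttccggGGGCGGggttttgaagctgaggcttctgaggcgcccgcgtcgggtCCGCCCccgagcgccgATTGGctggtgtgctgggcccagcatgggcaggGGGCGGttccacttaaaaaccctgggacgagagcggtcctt
PMVK (chr1:154936720-154936899, minus strand): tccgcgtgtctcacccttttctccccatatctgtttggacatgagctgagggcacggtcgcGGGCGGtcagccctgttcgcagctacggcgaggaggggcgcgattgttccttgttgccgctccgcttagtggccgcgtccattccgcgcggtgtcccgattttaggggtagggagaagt
MYLIP (chr6:16128906-16129085, plus strand): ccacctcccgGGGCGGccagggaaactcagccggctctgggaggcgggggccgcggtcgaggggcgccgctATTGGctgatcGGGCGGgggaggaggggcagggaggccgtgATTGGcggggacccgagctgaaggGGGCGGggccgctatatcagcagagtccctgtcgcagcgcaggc
SREBF2 (chr22:41832925-41833104, plus strand): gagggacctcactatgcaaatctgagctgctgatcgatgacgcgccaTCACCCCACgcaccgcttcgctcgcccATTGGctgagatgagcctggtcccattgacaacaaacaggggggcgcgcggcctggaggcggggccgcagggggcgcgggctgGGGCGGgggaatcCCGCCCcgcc

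A promoter was at hand for 31 of the 36 members, all except ACAT2, FDFT1, SQLE, FASN and ABCG1. In the 250 bases before the start, the NF-Y box was found in 18 of 31 members (58.1%), against 34.9% of the promoters of tested genes and 33% of all promoters. The GC box was found in 27 (87.1%), against 66.8% and 42.2%. The sterol regulatory element was found in 1 member, SREBF2, 133 bases before its start, against 0.843% of the promoters of tested genes and 0.868% of all. Both the genes that fell and those that rose held these letters. Of those that fell, INSIG1 and LSS had 1 NF-Y box with 4 and 5 GC boxes in the bases printed, and ACSS2 had 1 NF-Y box with 1 GC box. Of those that rose, TM7SF2 had 1 NF-Y box with 4 GC boxes, and MYLIP had 2 NF-Y boxes with 3 GC boxes. PMVK had no NF-Y box there and 1 GC box, in bases that lie inside its counted gene model. These are matches of letters and not binding sites.

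Along the mevalonate pathway, 6 of 7 members (85.7%) were lower with YKL-5-124 than with DMSO at an adjusted p below 0.05, against 25.2% of all genes. None was called beyond the fold threshold, against 21.8% of all genes in either direction. HMGCS1, which condenses the precursor of mevalonate, had 234, 255 and 221 CPM with YKL-5-124, 318, 332 and 314 CPM with samuraciclib, and 275, 314 and 302 CPM with DMSO. Only the YKL-5-124 libraries lay apart (log2 fold change -0.33 ± 0.058, adjusted p = 0.000151), the samuraciclib value being 0.11 ± 0.058 (adjusted p = 0.126). Mevalonate kinase MVK (-0.36 ± 0.056) and the decarboxylase MVD (-0.33 ± 0.060) were lower with YKL-5-124 too, and stood at -0.04 ± 0.055 and -0.06 ± 0.059 with samuraciclib. ACAT2, the cytosolic thiolase at the entry of the pathway, stood at -0.45 ± 0.085 with YKL-5-124, and at -0.54 without YKL-5-124 replicate 2 or without the 3 libraries low in 7SL RNA, beyond the threshold. Its model overlaps that of TCP1 on the opposite strand over 14.7% of its span, and the strand setting of the counting is not stated, so reads in the shared part cannot be told apart.

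FDPS, farnesyl diphosphate synthase, was lower with both inhibitors by nearly the same amount. It had 77.7, 82.7 and 75.3 CPM with YKL-5-124, 76.1, 83.0 and 77.9 CPM with samuraciclib, and 100.3, 112 and 105 CPM with DMSO. The log2 fold changes were -0.43 ± 0.056 (adjusted p = 4.66e-06) and -0.42 ± 0.056 (adjusted p = 7.11e-06). The isomerase gene IDI1 was lower by -0.26 ± 0.046 with YKL-5-124 and -0.14 ± 0.046 with samuraciclib.

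From squalene to cholesterol, 5 of 11 members (45.5%) were lower with YKL-5-124 at an adjusted p below 0.05, against 25.2% of all genes. TM7SF2 alone (9.09%) was higher, against 24.1% of all genes. SQLE, the rate-controlling epoxidase, had 383, 410.2 and 382 CPM with YKL-5-124, 475, 466 and 458 CPM with samuraciclib, and 461, 492 and 481 CPM with DMSO. The YKL-5-124 libraries were lowest (-0.29 ± 0.048, adjusted p = 7.14e-05), and samuraciclib overlapped DMSO (-0.04 ± 0.048, adjusted p = 0.568). DHCR7, the last reductase of the pathway, showed the same arrangement (-0.25 ± 0.051 with YKL-5-124, adjusted p = 0.000622, and 0.09 ± 0.051 with samuraciclib, adjusted p = 0.146). EBP, a sterol isomerase, was lower by similar small amounts with both (-0.15 ± 0.049 and -0.17 ± 0.049), and HSD17B7, a reductase of the demethylation steps, was lower with YKL-5-124 (-0.21 ± 0.081, adjusted p = 0.0378) and stood at -0.08 ± 0.081 with samuraciclib. FDFT1 (squalene synthase), CYP51A1, MSMO1, NSDHL and SC5D did not pass the test with either inhibitor, their log2 fold changes lying between -0.19 and 0.11. CYP51A1 was the least precise of them, at 13.4 to 20.6 CPM and an SE of 0.12, and other gene models cover 99.96% of its span.

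Both SREBP genes were lower with YKL-5-124. SREBF1, whose product drives mainly fatty acid genes, had 221, 198 and 209 CPM with YKL-5-124, 241, 225 and 244 CPM with samuraciclib, and 289.8, 293 and 280.3 CPM with DMSO. The groups did not overlap, and the log2 fold changes were -0.46 ± 0.051 (adjusted p = 6.10e-07) and -0.28 ± 0.051 (adjusted p = 0.000173). Without YKL-5-124 replicate 1 the first was -0.504, beyond the threshold. SREBF2, whose product drives mainly cholesterol genes, had 459, 454 and 452 CPM with YKL-5-124, 517, 508 and 501 CPM with samuraciclib, and 522, 549 and 552 CPM with DMSO. It was lower with YKL-5-124 (-0.25 ± 0.045, adjusted p = 0.000144) and did not pass with samuraciclib (-0.09 ± 0.045, adjusted p = 0.109). STARD4, a soluble sterol carrier, was lower with YKL-5-124 (-0.21 ± 0.059, adjusted p = 0.00690), while SCAP, the SREBP escort, stood at 0.05 ± 0.056 and 0.08 ± 0.056 with the inhibitors and did not pass.

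Among 9 genes of fatty acid synthesis and desaturation, 7 (77.8%) were lower with YKL-5-124 and 4 (44.4%) with samuraciclib at an adjusted p below 0.05. The shares of all genes were 25.2% and 23.1%. FASN had 1550.3, 1359.9 and 1504 CPM with YKL-5-124, 1629, 1553 and 1626 CPM with samuraciclib, and 2091, 2048 and 2079 CPM with DMSO. All inhibitor libraries lay below all DMSO libraries. The log2 fold change with YKL-5-124 was -0.49 ± 0.050 (adjusted p = 2.17e-07), just inside the threshold, and it was called without YKL-5-124 replicate 1 (-0.53) or 3 (-0.51) or DMSO replicate 2 (-0.51). With samuraciclib it was -0.37 ± 0.050 (adjusted p = 8.67e-06). ACLY, which makes cytosolic acetyl-CoA from citrate, was lower with both (-0.35 ± 0.044 and -0.19 ± 0.044).

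SCD, which introduces the first double bond, separated the inhibitors. It had 794, 879 and 789.98 CPM with YKL-5-124, 1087, 1092 and 1118 CPM with samuraciclib, and 1046, 1079 and 1172 CPM with DMSO. It was lower with YKL-5-124 than with DMSO (-0.42 ± 0.054, adjusted p = 3.64e-06), and the samuraciclib difference lay between -0.11 and 0.11 at 95% confidence. ACACA, the acetyl-CoA carboxylase, followed the same arrangement (-0.25 ± 0.049 with YKL-5-124, adjusted p = 0.000321, and 0.12 ± 0.049 with samuraciclib, adjusted p = 0.0624), as did LPIN1, a phosphatidate phosphatase (-0.22 ± 0.059 and 0.03 ± 0.059). The elongase gene ELOVL6 did not pass (0.11 ± 0.086 and 0.09 ± 0.086). The neighbouring desaturase genes ran apart, FADS1 being lower with both inhibitors (-0.34 ± 0.056 and -0.44 ± 0.057) and FADS2 higher with YKL-5-124 (0.33 ± 0.077, adjusted p = 0.00158). They lie on opposite strands with FADS1 wholly inside the spans of other gene models, and reads shared between them cannot be told apart without strand. FADS2 is also overlapped by FEN1 on its own strand, whose counts were 641% of those of FADS2. Strand would not separate reads shared with FEN1.

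**Figure D4:**
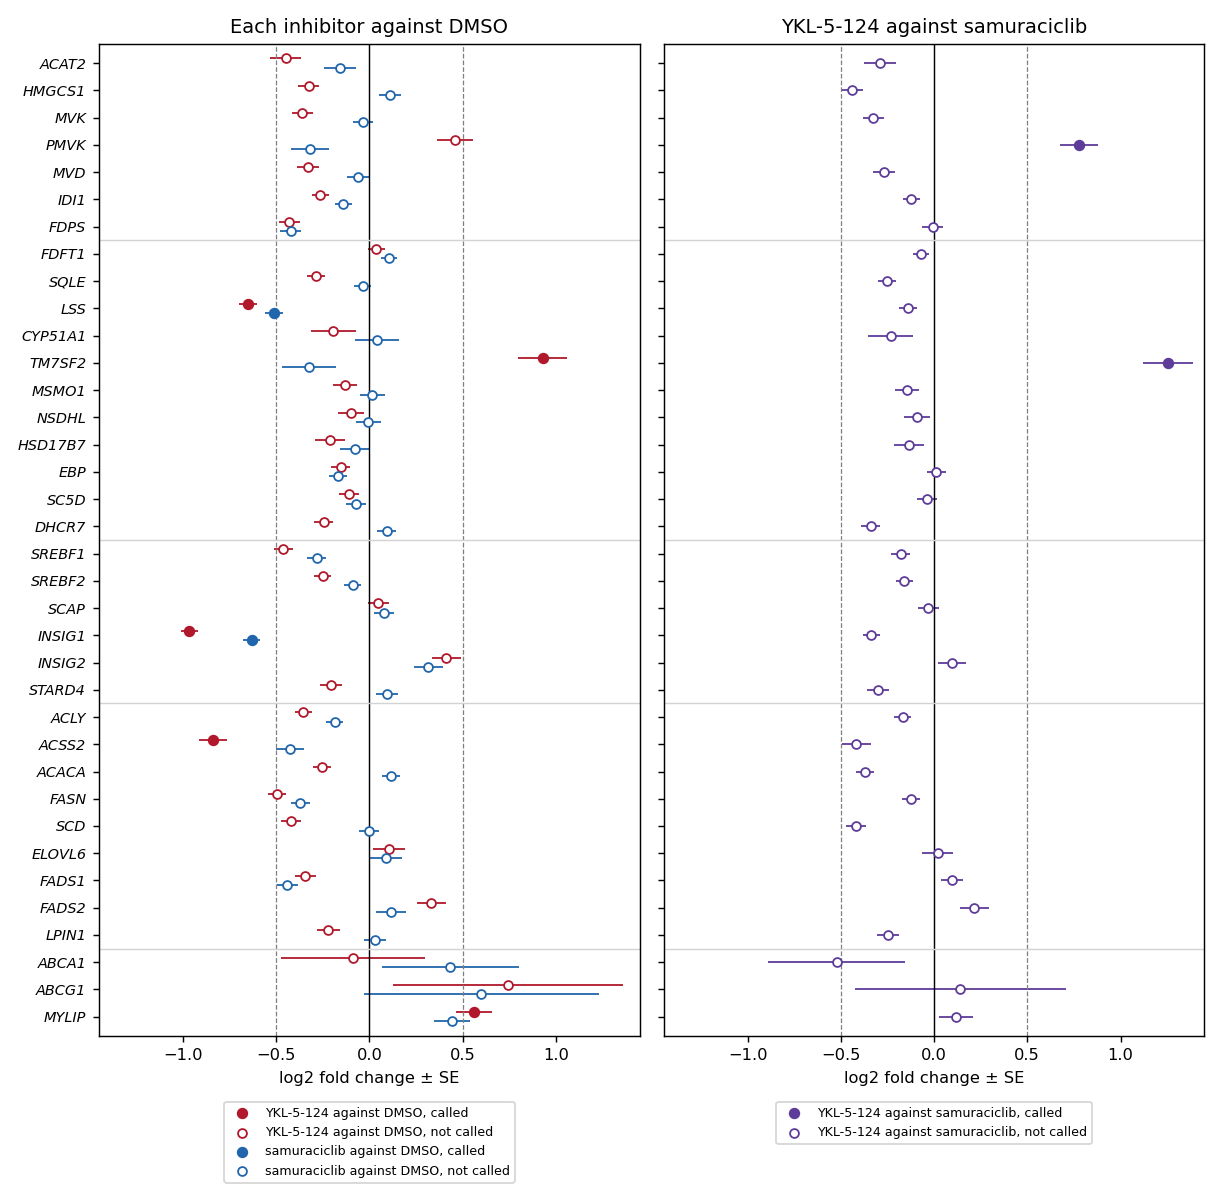
Log2 fold change ± SE of all 36 members, in the order of the pathway from ACAT2 at the top to MYLIP at the bottom, with both inhibitors against DMSO on the left and YKL-5-124 against samuraciclib on the right. Filled points are called, dashed lines mark the fold threshold of 0.5 in size, and grey lines divide the 5 groups of members; most points for YKL-5-124 against DMSO lie between 0 and -0.5.

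The direct comparison of YKL-5-124 with samuraciclib at the same dose asks where the compounds differed. PMVK and TM7SF2 were called higher with YKL-5-124, which is 2 of 36, against 4.46% of all genes, and 0 members were called lower, against 2.46% (6.92% in either direction). DESeq2 called 0 lower as well, and at an unadjusted p under 0.05 without a fold threshold 19 members were lower. At an adjusted p below 0.05 with no fold threshold, 16 of 36 members (44.4%) were lower with YKL-5-124, against 13.2% of all genes, and 3 (8.33%) were higher, against 11.8% (24.9% in either direction). The groups did not overlap for 19 members that were lower, against 19.2%, and 4 that were higher, against 19.5% (38.7% in either direction). The median was -0.14, with 0.01 over all genes. On library size alone it was -0.07 with 0.08 over all genes, and 11 members were lower and 4 higher, against 7.65% and 17.6% of all genes on that scaling. The YKL-5-124 libraries serve in both this comparison and the one with DMSO, so the values are set side by side and not as separate evidence.

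TM7SF2 was 2.39-fold higher with YKL-5-124 than with samuraciclib (log2 fold change 1.25 ± 0.14, adjusted p = 4.71e-06) and PMVK 1.71-fold higher (0.78 ± 0.10, adjusted p = 2.81e-05). HMGCS1 (-0.44 ± 0.058, adjusted p = 3.76e-05), SCD (-0.42 ± 0.054, adjusted p = 2.52e-05), ACSS2 (-0.42 ± 0.078, adjusted p = 0.000867) and ACACA (-0.37 ± 0.049, adjusted p = 3.67e-05) were the members furthest below samuraciclib among those that passed the test. DHCR7 (-0.34 ± 0.051), INSIG1 (-0.34 ± 0.047), MVK (-0.33 ± 0.056) and STARD4 (-0.30 ± 0.059) followed. These lie in all parts of the pathway except the LXR targets. The other 8 that passed lower were ACAT2, MVD, SQLE, LSS, SREBF1, SREBF2, ACLY and LPIN1, with log2 fold changes between -0.29 and -0.14, and FADS2 passed higher (0.22 ± 0.076, adjusted p = 0.0462). The remaining 17 members did not pass the test, and among them the 95% interval of the log2 difference was -0.13 to 0.11 for FDPS, -0.09 to 0.12 for EBP, -0.15 to 0.09 for SCAP, -0.02 to 0.22 for FADS1 and -0.07 to 0.31 for MYLIP. FASN stood at -0.12 ± 0.050 (adjusted p = 0.0796, interval -0.23 to -0.02). Only this 1 pair of compounds, 1 covalent and 1 ATP-competitive, was compared.

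A wider list of 43 genes around the pathway was tested in the same way, and all 43 passed the filter. With YKL-5-124 against DMSO, 5 fell and 2 rose, with samuraciclib against DMSO 3 fell and 3 rose, and between the inhibitors 2 were lower and 1 higher with YKL-5-124. As shares of the list, 11.6% fell and 4.65% rose with YKL-5-124, against 9.93% and 11.9% of all genes, 6.98% fell and 6.98% rose with samuraciclib, against 9.55% and 8.17%, and 4.65% were lower and 2.33% higher between the inhibitors, against 2.46% and 4.46%. Without the fold threshold, 18 of 43 (41.9%) were lower and 10 (23.3%) higher with YKL-5-124 against DMSO, against 25.2% and 24.1% of all genes. With samuraciclib against DMSO, 14 (32.6%) were lower and 15 (34.9%) higher, against 23.1% and 21% of all genes. Between the inhibitors, 15 (34.9%) were lower and 4 (9.30%) higher with YKL-5-124, against 13.2% and 11.8%. The median of the list was -0.10 with YKL-5-124 and -0.01 with samuraciclib.

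LBR, an inner nuclear membrane protein that shares the sterol C14 reductase activity of TM7SF2, fell with YKL-5-124 (-0.54 ± 0.047, adjusted p = 3.47e-08), where TM7SF2 rose, and stood at -0.31 ± 0.047 with samuraciclib (adjusted p = 3.15e-05). In the non-sterol isoprenoid branch, 4 of 6 genes were lower with YKL-5-124 and 5 of 6 with samuraciclib without the fold threshold, against 25.2% and 23.1% of all genes. PDSS1, for the side chain of ubiquinone, fell with YKL-5-124 (-0.67 ± 0.12) and was lower with samuraciclib inside the fold threshold (-0.41 ± 0.12, adjusted p = 0.00743). COQ2, which joins that side chain to the ring, fell with samuraciclib (-0.60 ± 0.12) and was lower with YKL-5-124 inside the threshold (-0.39 ± 0.11, adjusted p = 0.00847). Neither passed the test between the inhibitors (adjusted p = 0.136 and 0.202). GGPS1, which makes geranylgeranyl diphosphate, fell with samuraciclib (-0.62 ± 0.11), stood at -0.25 ± 0.10 with YKL-5-124 and was higher with YKL-5-124 than with samuraciclib (0.36 ± 0.11, adjusted p = 0.0182). The span of GGPS1 lies almost wholly under other gene models (98.0%).

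Of 17 genes of fatty acid activation, elongation and supply, 5 were higher (29.4%) and 3 lower (17.6%) with YKL-5-124 at an adjusted p below 0.05, against 24.1% and 25.2% of all genes. With samuraciclib 8 were higher (47.1%) and 2 lower (11.8%), against 21% and 23.1%. The elongase gene ELOVL7 rose with YKL-5-124 (0.54 ± 0.061, adjusted p = 7.64e-07) and with samuraciclib (0.76 ± 0.060, adjusted p = 1.51e-08). FADS3 rose with samuraciclib (0.52 ± 0.059) and stood just inside the threshold with YKL-5-124 (0.49 ± 0.059, adjusted p = 1.79e-06). SCD5, a paralog of SCD, rose with samuraciclib (0.64 ± 0.099, adjusted p = 4.21e-05), did not pass with YKL-5-124 (0.09 ± 0.10, adjusted p = 0.508) and was lower with YKL-5-124 than with samuraciclib (-0.55 ± 0.098). Of the LXR genes, NR1H3, which encodes LXR alpha, fell with YKL-5-124 (-0.75 ± 0.15, adjusted p = 0.000497) and with samuraciclib (-1.27 ± 0.16, adjusted p = 4.58e-06), and was higher with YKL-5-124 than with samuraciclib (0.51 ± 0.17, adjusted p = 0.0342). It held only 63 to 222 counts per library. Other gene models cover 2.93% of the NR1H3 span, among them ACP2 on the opposite strand, whose counts were 411% of those of NR1H3. SMPDL3A, a known LXR target, rose with YKL-5-124 (0.77 ± 0.15), as MYLIP did, and stood at 0.40 ± 0.15 with samuraciclib (adjusted p = 0.0456).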

How the data were processed

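Poly(A) RNA was measured in 9 libraries, 3 for each of 3 groups. According to the submitters' processing notes and the methods, read pairs were placed on GRCh38 by HISAT2, and featureCounts 2.0.6 summed them by gene. Annotation release and strand setting are not given in the sources used here. The counts deposited by the authors are whole numbers per gene, without normalization. The gene length deposited by the authors is another column, in bases of the gene model, and was used for CPM per kb. Of 58929 genes, 16065 passed filterByExpr. Counts were scaled by TMM and tested in 1 fit of all libraries with edgeR 4.0.16 (glmQLFit, glmQLFTest, two-sided), with Benjamini-Hochberg adjustment over all genes tested. The fit was tested on simulated data. The SE is the log2 fold change divided by the square root of F, and 95% intervals use the t quantile of 2.10. DESeq2 1.42.0 and other settings served as alternatives. Promoter sequences are from RefSeq (GRCh38.p14), 1 per gene, the most upstream start. All 36 members are named whatever their values, and of the wider list the genes called in at least 1 comparison, apart from some that are not reported here. Members and lists were chosen with earlier results of these data known. R was 4.3.3, Python 3.11.15.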

Additional observations from a re-analysis of the deposited data

How the results depend on the processing

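Of 2262 values of the 36 members in the 3 comparisons under 21 alternatives, 2184 kept their side of the thresholds, 63 passed only under the alternative, 15 no longer passed and none that was called changed sign. Only 5, 2 and 2 members were called in the 3 comparisons. Most of the 2184 values therefore belong to members that stayed uncalled, whereas all 15 losses fall on the few calls. In 56 cases a value that was never called changed sign.

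Thresholds moved the counts most. With no fold threshold, members called with YKL-5-124 against DMSO numbered 5 higher and 22 lower, and with samuraciclib against DMSO 2 and 11. With YKL-5-124 against samuraciclib they numbered 3 higher and 16 lower. The wider list had 28, 29 and 19 genes called in the 3 comparisons. By glmTreat, 1 member was higher and 3 lower with YKL-5-124 against DMSO, against 696 and 762 of all 16065 genes. With samuraciclib against DMSO, 0 were higher and 1 lower, against 411 and 571 of all genes. With YKL-5-124 against samuraciclib, 1 was higher and 0 lower, against 38 and 33 of all genes. The wider list had 2, 2 and 0 calls. With a log2 fold change beyond 1, 0 members were higher and 0 lower with YKL-5-124 against DMSO, against 814 and 434 of all genes. With samuraciclib against DMSO, 0 were higher and 0 lower, against 471 and 374 of all genes. Between the inhibitors 1 was higher and 0 lower with YKL-5-124, against 194 and 70 of all genes. The wider list had 1, 1 and 0 calls.

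With library size alone, 4 members were higher with YKL-5-124 against DMSO (PMVK, 0.59, and INSIG2, 0.54, were added), 1 was higher and 1 lower with samuraciclib against DMSO (MYLIP, 0.502, was added and LSS, -0.45, lost), and the wider list had 1 call between the inhibitors. Without the fold threshold, 8 and 7 members were then higher with YKL-5-124 and samuraciclib against DMSO. Over all genes, 2802 were then called higher and 1052 lower with YKL-5-124 against DMSO (1911 and 1595 with TMM), 1622 and 1219 with samuraciclib against DMSO (1312 and 1535), and 982 and 253 with YKL-5-124 against samuraciclib (717 and 395). With a mean of at least 50 counts, LSS (-0.49) was lost with samuraciclib, leaving 1 lower, and 4 members were higher without the fold threshold, as they were with protein-coding genes only. With no filter on low counts, FASN (-0.51) was called lower with YKL-5-124. Without the 3 libraries low in 7SL RNA, 1 member was higher with YKL-5-124 against DMSO.

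Leaving out 1 library at a time gave 2 to 3 members higher and 3 to 5 lower with YKL-5-124 against DMSO, the 5 without YKL-5-124 replicate 1 by FASN (-0.53) and SREBF1 (-0.504). With samuraciclib against DMSO it gave 0 to 1 higher and 1 to 2 lower, and between the inhibitors 2 higher and 0 lower. Without the fold threshold these ranges were 5 higher and 20 to 23 lower, 2 to 3 higher and 8 to 12 lower, and 2 to 3 higher and 14 to 16 lower. The wider list had 7 to 9, 4 to 7 and 2 to 3 calls. The cause of these moves was not tested beyond the setting itself.

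The replicate numbers of the labels share only a number. With the replicate block the counts stayed at 2 higher and 3 lower, 0 and 2, and 2 and 0 in the 3 comparisons, and the wider list at 7, 6 and 3. Deviations of same-numbered libraries correlated at -0.056 to 0.17, and DMSO libraries did not all correlate best with their own number. DMSO replicate 3 correlated at 0.15 with replicate 2 of each inhibitor, and at -0.056 and -0.054 with replicate 3 of YKL-5-124 and samuraciclib. The block by label number therefore cannot show how the counts stand under another pairing.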
